A study of Homo sapiens with 14 samples.

Results

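MPP2, ACSL4, TBC1D13, PIP4P2, ZCCHC17 and LIMD2 are 6 human genes whose 3′ untranslated regions (3′ UTRs) hold a match to the seed of the microRNA miR-34a together with a match to guide positions 13 to 16. They are 6 of the 63140 genes in the count table, and all 6 were among the 18321 genes with enough reads to be tested. The 6 were selected on 2 properties, the second of them a measured value: the site, and a higher level with an altered miR-34a than with the unmodified one. Their difference between those duplexes is therefore given below as a description with no test.

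The cells were HEK293T, an established line derived from human embryonic kidney that carries the SV40 large T antigen. All libraries came from cells 24 h after transfection. The control group (n = 5) received AllStars, a negative control siRNA from Qiagen, the miR-34a-WT group (n = 5) received a duplex with the unmodified guide, and the miR-34a-RS group (n = 4) received a duplex whose guide had an rSpacer, a sugar-phosphate unit without a base, at positions 13 and 14. No group was left untransfected, all came from 1 cell line at 1 time, and the duplexes raised miR-34a from outside the cell. The labels number the libraries of each group and do not say that they came from separate cultures, so each p-value is set against library-to-library spread that may be technical only.

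A microRNA guide sits in an Argonaute protein and finds target messages mainly through its seed, the bases near its 5′ end. Messages bound in this way are translated less and decay faster. At some sites, bases in the 3′ part of the guide pair with the target upstream of the seed match, which is called supplementary pairing; the question of the series was how much such pairing contributes, and an abasic residue cannot form a base pair. miR-34a is a microRNA whose gene is switched on by p53, and it is known for slowing the cell cycle.

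The guide and the sites are shown because the members are defined by them. The guide is the RefSeq mature hsa-miR-34a-5p, at chr1:9151735-9151756 on the minus strand of GRCh38.p14, with capitals at positions 2 to 8 (the seed) and 13 to 16; the labels do not print the duplex sequence.
miR-34a-5p: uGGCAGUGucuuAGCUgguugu
Target sites were sought on the transcript strand in the longest 3′ UTR of each protein-coding gene in GENCODE 29 on GRCh38. The words were CACTGCCA (the 8mer, pairing with positions 2 to 8 plus an A opposite position 1) and CACTGCC (the 7mer-m8), with AGCT, the match of positions 13 to 16, 1 to 15 bases upstream. In the sites below, written 5′ to 3′ in DNA letters, capitals mark AGCT and the seed match.
MPP2: atccacAGCTtctCACTGCCg
ACSL4: cccaaaAGCTagaaCACTGCCA
TBC1D13: ttcataAGCTtgggcCACTGCCt
ZCCHC17: ctctccAGCTgcCACTGCCA
LIMD2: gtcccaAGCTccctCACTGCCA

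All of these lie in 3′ UTR exons. The MPP2 site is at chr17:43877126-43877146 on the minus strand, the ACSL4 site at chrX:109642109-109642130 on the minus strand and the TBC1D13 site at chr9:128809928-128809950 on the plus strand. The ZCCHC17 site is at chr1:31364483-31364502 on the plus strand and the LIMD2 site at chr17:63698184-63698205 on the minus strand. PIP4P2, on the minus strand of chromosome 8, has a 7mer-m8 with the 13 to 16 match, and its sequence is not shown. The seed match was an 8mer in ACSL4, ZCCHC17 and LIMD2 and a 7mer-m8 in MPP2, TBC1D13 and PIP4P2. Not every transcript carries the site: it was in 7 of 10 coding transcripts of MPP2 and 3 of 6 of LIMD2, and in every one of ACSL4 (3 of 3), TBC1D13 (2 of 2), ZCCHC17 (8 of 8) and PIP4P2 (1 of 1).

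The sites share a short spacer. Between the target bases facing guide positions 8 and 13, ZCCHC17 has 2 bases, MPP2 3, ACSL4, LIMD2 and PIP4P2 4 each, and TBC1D13 5. Counted from position 13, the uninterrupted pairing ran for 4 bases in ACSL4, TBC1D13 and LIMD2, 5 in MPP2 and 6 in ZCCHC17. Positions 13 and 14, the abasic ones of miR-34a-RS, are the first pairs of that run because it was counted from 13. Positions 9 to 12 were set as loop in each site and were not checked for pairing. In ACSL4 the base after AGCT is an A, which can pair with the U at guide position 12. Beyond position 16, Watson-Crick pairs were few: 2 each in MPP2, ACSL4 and ZCCHC17, and 1 each in TBC1D13 and LIMD2.

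**Figure D1:**
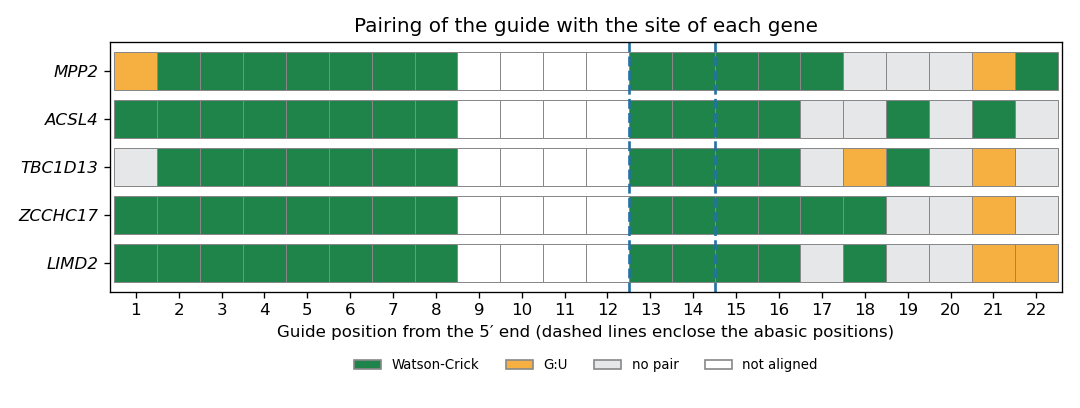
Pairing of the miR-34a guide with the sites of 5 members, with guide position on the x axis and 1 row per site. Each cell is coloured by whether the position pairs, forms a G-U wobble, is unpaired or is not aligned (the loop). Positions 9 to 12 were set as loop and were not checked for pairing. Dashed lines enclose the abasic positions. All 5 rows pair from position 13 to 16, and the run, counted from 13, reaches position 17 in MPP2 and 18 in ZCCHC17.

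Members differ in what else their 3′ UTRs hold. MPP2 has 3 strong seed matches (8mer or 7mer-m8) in 2450 bases, and its match with 13 to 16 pairing, at base 675, is the last of them; an 8mer at base 167 and a 7mer-m8 at base 350 lack AGCT. The MPP2 8mer is printed for comparison, with its seed match in capitals and no AGCT upstream.
MPP2 8mer: agcacagaggcgtgCACTGCCA
TBC1D13 has a 7mer-m8 without 13 to 16 pairing only 21 bases after the one with it (bases 2086 and 2065 of 2553), and LIMD2 has another 8mer 1864 bases downstream (bases 2226 and 362 of 2650). ACSL4, ZCCHC17 and PIP4P2 have 1 strong match each, in 3′ UTRs of 2692, 899 and 1881 bases. The 60 bases around the sites, 30 on each side, ranged from 28.3% A and U in LIMD2 to 70.0% in PIP4P2.

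**Figure D2:**
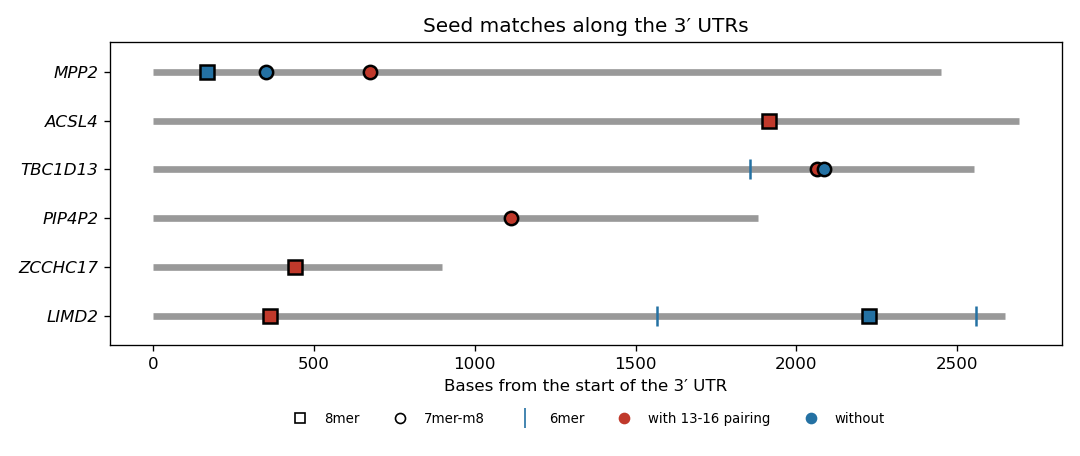
Map of the 6 members' 3′ UTRs to scale, with bases from the start of the 3′ UTR on the x axis. Symbols mark the seed matches by type and whether positions 13 to 16 can pair upstream; MPP2, TBC1D13 and LIMD2 hold strong matches of both kinds, and ACSL4, ZCCHC17 and PIP4P2 only the kind with 13 to 16 pairing.

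Levels are given as CPM, the usual scaling of counts to a common library total, with trimmed mean of M-values (TMM) factors, in libraries with gene counts totalling 22.24 to 36.26 M. Mitochondrial genes took 2.19 to 3.3% of counts. Markers written down for HEK293T, among them PAX2, LHX1, VIM, CDH2 and NEFM, were above the filter, while the blood markers PTPRC and CD3E stayed at or under 0.0325 and 0.0294 CPM and the fibroblast gene COL1A2 had no count; COL1A1 was at 21.7 to 32.2 CPM. No library stood apart in these values.

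The test of the members that does not use their choice compares the 9 microRNA libraries together with the 5 controls, a contrast orthogonal to the difference between the duplexes. In it 5 of the 6 were lower than control and PIP4P2 did not pass; over all tested genes 23.1% were lower and 20.3% higher, and lower calls were frequent among seed-matched messages in general. Of the 2190 tested genes with a strong seed match and no 13 to 16 pairing, 1034 were lower, and of the 217 other genes with 13 to 16 pairing, 105. In bulk RNA, a loss in every cell and a larger loss in some of the cells cannot be told apart. With miR-34a-WT alone all 6 were lower than control (21.3% of tested genes lower, 18.9% higher), and with miR-34a-RS 4 were lower and none higher (18.4% lower, 16.2% higher). These last comparisons share the microRNA libraries on which the members were chosen, and share the controls with each other, so they do not support each other.

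MPP2 (ENSG00000108852, chr17:43875357-43909711, minus strand) encodes a membrane-associated guanylate kinase (MAGUK), a scaffold that holds receptors and adhesion proteins at cell contacts and synapses. In control libraries 1 to 5 it was at 72.9, 83.8, 79.6, 81.5 and 84.0 CPM. In miR-34a-WT libraries 1 to 5 it was at 25.8, 25.6, 24.7, 25.5 and 27.2 CPM, and in miR-34a-RS libraries 1, 2, 3 and 5 at 44.7, 47.2, 47.1 and 44.8 CPM. The groups formed 3 separate bands with no overlap, and the highest miR-34a-RS library stayed well under the lowest control. Here and in the members below, the choice favours a gap between the duplexes. The share of all tested genes without overlap is not given. Means were 80.3 ± 4.55 CPM (SD, n = 5) in control, 25.8 ± 0.935 (n = 5) with miR-34a-WT and 46.0 ± 1.41 (n = 4) with miR-34a-RS. MPP2 fell by 1.27 on the log2 scale over the 9 microRNA libraries (SE 0.040; edgeR quasi-likelihood test, Benjamini-Hochberg adjusted p = 4.77e-18). Against control the log2 change was -1.64 (SE 0.049; adjusted p = 2.07e-18 by the same edgeR test) with miR-34a-WT and -0.81 (SE 0.050; adjusted p = 2.11e-12) with miR-34a-RS. Of the 6, MPP2 had the largest difference between the duplexes, 1.79-fold (log2 0.84, SE 0.051).

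ACSL4 (ENSG00000068366, chrX:109624244-109733403, minus strand) encodes an acyl-CoA synthetase that activates arachidonic acid and other long polyunsaturated fatty acids, and it is known for supplying the phospholipids that are oxidised in ferroptosis. Control libraries 1 to 5 were at 73.7, 74.5, 73.4, 74.6 and 75.2 CPM. The miR-34a-WT libraries were at 36.6, 32.1, 32.4, 31.0 and 32.8 CPM and the miR-34a-RS libraries at 56.8, 48.0, 46.9 and 45.4 CPM. Replicate 1 was the highest library in each microRNA group, and no groups overlapped. ACSL4 fell by 0.91 on the log2 scale over the microRNA libraries (SE 0.048; edgeR, Benjamini-Hochberg adjusted p = 4.14e-14). The log2 change was -1.17 (SE 0.056; edgeR adjusted p = 1.37e-14) with miR-34a-WT and -0.59 (SE 0.058; adjusted p = 1.03e-08) with miR-34a-RS, and the abasic duplex left 1.496 times the level of the unmodified one (log2 0.58, SE 0.059).

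PIP4P2 (ENSG00000155099, chromosome 8) encodes a lysosomal and endosomal phosphatase that removes a phosphate from phosphatidylinositol 4,5-bisphosphate. It was the least abundant member, with 107 to 250 counts per library against 418 to 2989 for the others. Control libraries 1 to 5 were at 4.92, 5.65, 5.80, 5.38 and 5.26 CPM, miR-34a-WT libraries at 4.57, 4.16, 3.57, 4.07 and 3.62, and miR-34a-RS libraries at 7.19, 5.75, 6.86 and 5.42. The miR-34a-WT values were all under the controls, and the miR-34a-RS values overlapped the controls with 2 libraries above every control. PIP4P2 was lower with miR-34a-WT (log2 -0.44, SE 0.097; edgeR adjusted p = 0.00068) and was not called with miR-34a-RS (log2 0.22, SE 0.096; adjusted p = 0.0783). The choice of the members favours low values with miR-34a-WT and high ones with miR-34a-RS, so both comparisons depend on it. Over the 9 microRNA libraries, where the opposite signs average, the log2 change of PIP4P2 was -0.15 (SE 0.083; edgeR adjusted p = 0.163). Single libraries decide these calls: without miR-34a-RS replicate 1 the change over the microRNA libraries was -0.21 (adjusted p = 0.0406), without miR-34a-RS replicate 5 the change with miR-34a-RS was 0.29 (adjusted p = 0.0297), and with the replicate number as a block the latter was 0.23 (adjusted p = 0.0463).

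TBC1D13 (ENSG00000107021, chr9:128787204-128810432, plus strand) encodes a TBC domain protein, a GTPase-activating protein for the membrane traffic GTPase RAB35. Control libraries 1 to 5 were at 74.5, 82.2, 88.5, 88.9 and 91.3 CPM. With miR-34a-WT they were at 25.8, 27.1, 29.4, 28.9 and 27.3, and with miR-34a-RS at 40.2, 40.0, 44.5 and 41.9. No groups overlapped, and the miR-34a-RS libraries lay nearer to miR-34a-WT than to control. TBC1D13 had the largest change of the members over the microRNA libraries, a fall by 1.36 on the log2 scale (SE 0.047; edgeR, Benjamini-Hochberg adjusted p = 2.06e-17). It was -1.62 (SE 0.056; edgeR adjusted p = 3.84e-17) with miR-34a-WT and -1.03 (SE 0.058; adjusted p = 4.94e-13) with miR-34a-RS, which is the largest change of the members with that duplex. The abasic duplex left 1.503 times the level of the unmodified one (log2 0.59, SE 0.060).

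ZCCHC17 (ENSG00000121766, chr1:31296982-31364953, plus strand) encodes an RNA-binding protein with a CCHC zinc knuckle that is found in nucleoli and nuclear speckles. Control libraries 1 to 5 were at 56.4, 54.3, 57.4, 54.1 and 55.4 CPM, miR-34a-WT libraries at 39.1, 43.2, 37.4, 37.7 and 36.6, and miR-34a-RS libraries at 49.4, 53.3, 52.6 and 53.7. The miR-34a-RS libraries lay just under the lowest control, the nearest of them by less than 1 CPM. ZCCHC17 fell by 0.33 on the log2 scale over the microRNA libraries (SE 0.042; edgeR, Benjamini-Hochberg adjusted p = 5.19e-07) and by 0.52 with miR-34a-WT (SE 0.048; adjusted p = 3.02e-09). With miR-34a-RS it was not called (log2 -0.09, SE 0.050; edgeR adjusted p = 0.192), although the CPM ranges did not overlap. The level with miR-34a-RS was 1.35 times that with miR-34a-WT (log2 0.43, SE 0.051), the smallest such ratio of the 6.

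LIMD2 (ENSG00000136490, chr17:63695902-63701172, minus strand) encodes a small LIM domain protein that binds integrin-linked kinase and is known from work on cell motility. Control libraries 1 to 5 were at 25.06, 28.46, 28.98, 29.03 and 34.37 CPM, miR-34a-WT libraries at 16.2, 16.9, 14.7, 14.9 and 15.3, and miR-34a-RS libraries at 21.00, 23.72, 23.94 and 23.04. The groups did not overlap, with the lowest control about 1 CPM above the highest miR-34a-RS library. LIMD2 fell by 0.65 on the log2 scale over the microRNA libraries (SE 0.058; edgeR, Benjamini-Hochberg adjusted p = 1.09e-09). It was -0.90 (SE 0.068; edgeR adjusted p = 7.15e-11) with miR-34a-WT and -0.34 (SE 0.070; adjusted p = 3.61e-04) with miR-34a-RS, a ratio of 1.47 between the duplexes (log2 0.56, SE 0.072). Its value is uncertain, because 402 of its exon bases (8.47%) lie opposite exons of MAP3K3 (mean 66.3 CPM) and the library kit does not mark strand. MAP3K3 changed by -0.44 (SE 0.047) with miR-34a-WT and -0.45 (SE 0.050) with miR-34a-RS, a difference between the duplexes of -0.01 (SE 0.050); the LIMD2 site with 13 to 16 pairing is outside the shared bases. ZCCHC17 (188 bases) and PIP4P2 (105 bases) also lie opposite noncoding genes that had too few counts to be tested.

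**Figure D3:**
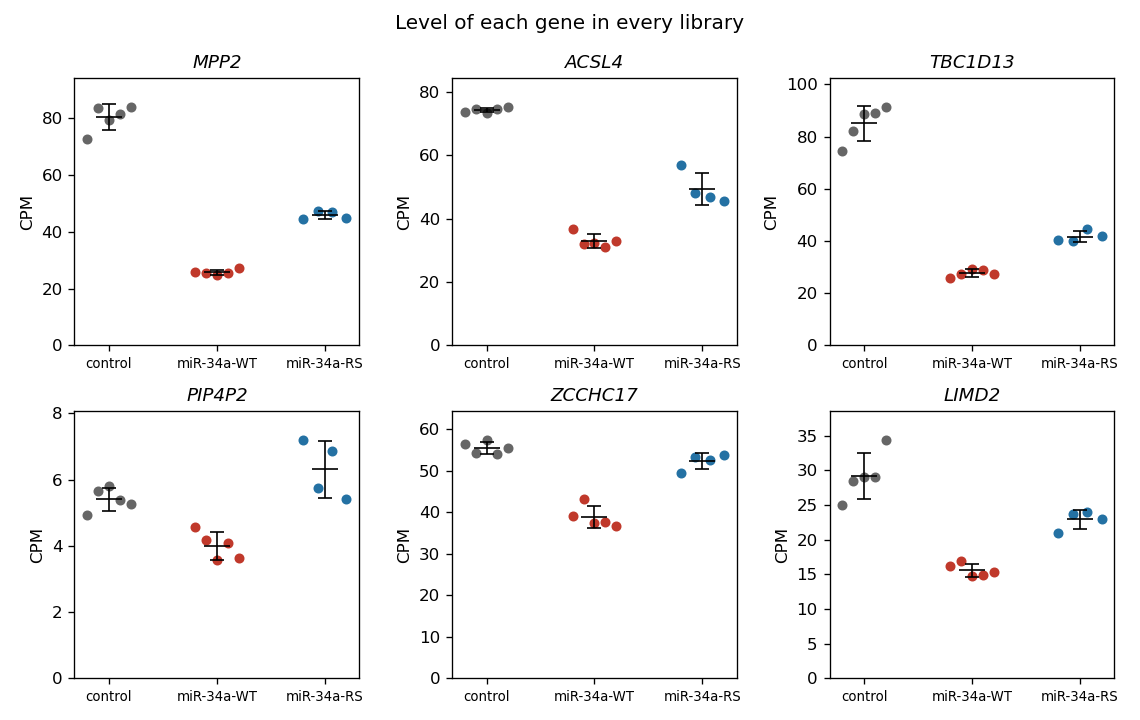
CPM of the 6 members in each library, 1 panel per gene with its own axis from 0; points are libraries and bars are group means with SD (control and miR-34a-WT n = 5, miR-34a-RS n = 4). In 5 panels the 3 groups are separate with miR-34a-RS between the others, and in PIP4P2 the miR-34a-RS libraries reach above the controls. The choice of the members favours the gap between the duplexes, and the share of all tested genes with separate groups is not given.

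The choice of the members fixed that miR-34a-RS lies above miR-34a-WT, and over all tested genes 1.03% were called higher and 0.535% lower in that contrast (188 and 98 genes; 625 and 629 with the replicate number as a block). As single libraries were left out, the 286 calls ranged from 142 without miR-34a-RS replicate 3 to 730 without miR-34a-RS replicate 1; they were 143 and 176 without miR-34a-RS replicates 2 and 5, and 175 and 151 without miR-34a-WT replicates 1 and 3. As a description of the chosen genes, on the log2 scale the difference between the duplexes was 36.4% of the miR-34a-WT change in TBC1D13, 49.6% in ACSL4, 50.9% in MPP2, 61.8% in LIMD2, 83.2% in ZCCHC17 and 150.2% in PIP4P2. The numerator of this share was chosen to be large and its denominator is the miR-34a-WT change, so a gene with a shallow fall has a high share by construction, and nothing is read from the order.

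Same-numbered libraries of the duplexes deviated together across genes, so the difference was also taken within numbers 1, 2, 3 and 5. For MPP2 it was 0.79, 0.88, 0.93 and 0.72 on the log2 scale (mean 0.83 ± 0.096, SD, n = 4). TBC1D13 was the steadiest, at 0.64, 0.56, 0.60 and 0.62, and ACSL4 was at 0.63, 0.58, 0.53 and 0.47. LIMD2 varied more, at 0.38, 0.49, 0.70 and 0.58, as did ZCCHC17 at 0.34, 0.30, 0.49 and 0.55. PIP4P2 had the widest spread, at 0.65, 0.46, 0.93 and 0.57 (SD 0.20). Each of the 6 was higher with miR-34a-RS in 4 of 4 numbers, a count that the choice of the members on these same libraries favours.

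**Figure D4:**
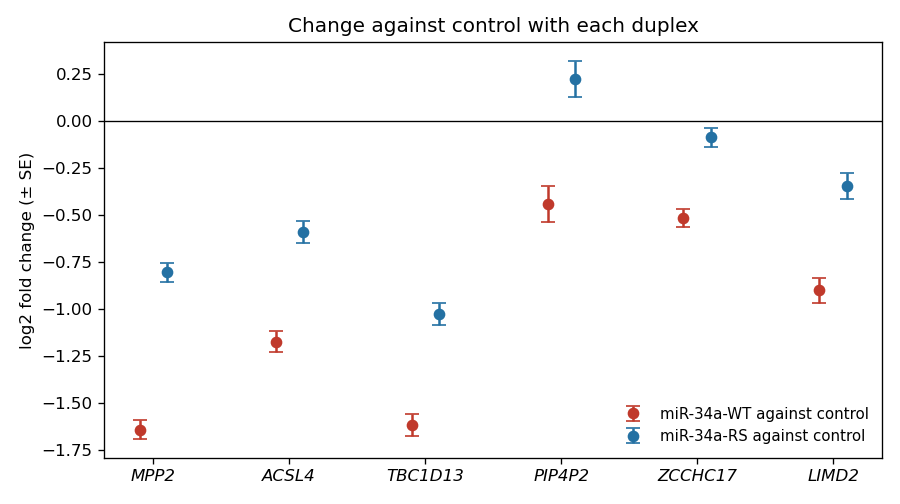
Log2 fold change against control of each member under the unmodified and the abasic duplex, with error bars of 1 SE from the edgeR fit. Fold change is on the y axis and the genes on the x axis. The miR-34a-RS point lies above the miR-34a-WT point for every gene, which is how the genes were chosen; it stays under -0.5 in MPP2, ACSL4 and TBC1D13, it is nearest to 0 in ZCCHC17, and it lies above 0 in PIP4P2.

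The number of strong seed matches can be set beside these values. MPP2 and TBC1D13, with other strong matches that do not pair at 13 to 16, kept changes of -0.81 and -1.03 with miR-34a-RS, and LIMD2, with another 8mer far downstream, kept -0.34. Among the members with 1 match, ACSL4 kept -0.59, and ZCCHC17 and PIP4P2 were at -0.09 and 0.22. The groups of 3 genes overlap in this respect, and no test was made over 6 genes that were picked.

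Per length (TPM, the count divided by the length of a gene's merged GENCODE 29 exons and scaled to a common library total), ZCCHC17 was the highest member in control, at a mean of 115 TPM. TBC1D13 followed at 84.9, MPP2 at 52.2, ACSL4 at 46.0, LIMD2 at 24.4 and PIP4P2 at 6.997 TPM, and no neighbours in this order overlapped over the 5 control libraries. With miR-34a-WT the order of MPP2 and ACSL4 turned, ACSL4 at 19.16 to 23.02 TPM and MPP2 at 15.97 to 17.99. With miR-34a-RS their ranges overlapped, at 28.9 to 36.4 TPM for ACSL4 and 29.9 to 32.1 for MPP2.

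The choice of 6 has edges that the values show. The tested genes with a 13 to 16 pairing site and a mean of at least 5 CPM numbered 187. When they were ordered by how clearly the duplexes differed, the members held 6 of the first 7 places. The members were chosen on that same difference, so the choice favours these places. PIP4P2 was the last of them and was just inside the floor, at 5.16 CPM. Just outside, GHDC (7mer-m8, 4 bases between) had 48.2 CPM in control, 29.8 under miR-34a-WT and 40.1 under miR-34a-RS, a difference between the duplexes of 0.43 (SE 0.068), close to that of ZCCHC17. ATRIP (10 bases between), a partner of the checkpoint kinase ATR, differed by 0.27 (SE 0.052), and RUSF1 (3 bases between, with 38.3% of its exon bases opposite SLC5A2) by 0.31 (SE 0.070). SLC35D1 (9 bases between), a nucleotide-sugar transporter of the endoplasmic reticulum, went the other way, from 55.3 CPM with miR-34a-WT to 47.0 with miR-34a-RS (log2 -0.23, SE 0.050).

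Most other genes with such a site did not show the members' pattern. Of 13611 tested genes with an annotated 3′ UTR, 223 held a strong match with 13 to 16 pairing. Without the members, the other 217 had a median log2 change of -0.17 under miR-34a-WT and -0.15 under miR-34a-RS, and a median difference between the duplexes of 0.02. In 119 of the 217 (54.8%) miR-34a-RS was above miR-34a-WT, beside 50.7% of the 2190 genes with a strong match and no 13 to 16 pairing and 48.8% of all tested genes. Of the 217, 8 were called higher with miR-34a-RS and 2 lower.

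The difference between the duplexes varied with the number of bases between the seed match and AGCT. Ranges were set after the members' spacers of 2 to 5 were seen, and the values are a description. All 6 members had 2 to 5 bases, against 63 of the other 217. In those 63 genes the median difference between the duplexes was 0.06, miR-34a-RS was above miR-34a-WT in 43 (68.3%), and the median change with miR-34a-WT was -0.33. Of them 5 were called higher with miR-34a-RS and 1 lower, beside 2 and 1 of the 81 genes with 6 to 10 bases and none of the 63 with 11 to 15. With 6 to 10 bases (81 genes) the median difference was 0.02 and 56.8% were above, and with 11 to 15 bases (63 genes) it was -0.03 and 34.9% were above. The median change with miR-34a-WT was -0.10 and -0.06 in these ranges, and the median 3′ UTR length rose from 2543 bases with 2 to 5 bases between to 3291 and 3664; the part of length in the order was not tested. Only 10 genes had 1 base between, with a median difference of 0.08. In 8 of these 10 (80.0%) miR-34a-RS was above miR-34a-WT, and 1 was called higher and none lower, so high shares were not limited to 2 to 5 bases.

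**Figure D5:**
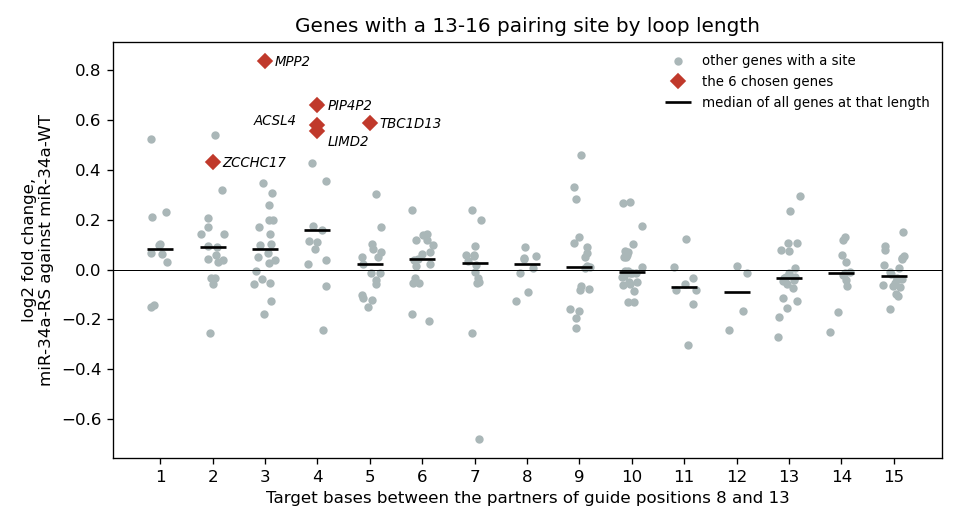
Difference between the duplexes (log2, miR-34a-RS minus miR-34a-WT) against the number of target bases between the partners of guide positions 8 and 13, for tested genes with a 13 to 16 pairing site; the members are labelled and bars are medians of all genes at a length, members included. The members sit at 2 to 5 bases and above 0.4, and the other genes, without the members, have a median of 0.06 at 2 to 5 bases and -0.03 at 11 to 15.

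The length of the pairing was also described at short spacers, with the members left out. Among the 63 other genes with 2 to 5 bases between, miR-34a-RS was above miR-34a-WT in 17 of 19 with a run of at least 5 pairs from position 13 (median difference 0.10) and in 26 of 44 with a run of 4 (median 0.04). In site context, the members had a median of 47.5% A and U around the site against 46.7% in the other 217, and a median 3′ UTR length of 2502 against 2975 bases. Their sites lay a median of 768.5 bases from the end of the 3′ UTR, against 1412 in the others. An 8mer was held by 3 of 6 members and 59 of 217 others (27.2%), and 2 or more strong matches by 3 of 6 and 75 of 217 (34.6%). With the members included, miR-34a-RS was above miR-34a-WT in 45.2% of the 62 genes whose site was an 8mer. For the 161 with a 7mer-m8 it was 60.2%. Both sets hold members, which were chosen for that direction, so the choice raises both shares.

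The paralogs and pathway partners of the members mostly lack such sites, which 3 of the 160 tested list genes hold. Between the duplexes 5 of the 160 (3.12%) were called higher with miR-34a-RS and none lower, beside 1.03% and 0.535% of all tested genes; no test was made of that share. Like the other calls between the duplexes given for sets of genes, these came from the fit without the replicate block. With the block 625 of all tested genes were called higher and 629 lower, and the counts of the lists under it are not given. In the MAGUK list, which also holds the LIN7 partners of MPP2, 5 of 20 tested genes were higher with the microRNA duplexes and 1 was lower (median 0.06, against -0.02 over all tested genes). The higher genes were the synaptic scaffolds DLG3 (0.11, SE 0.042) and DLG4 (0.25, SE 0.065), the polarity scaffold DLG5 (0.29, SE 0.056), MAGI2 (0.39, SE 0.093) and LIN7C (0.44, SE 0.072), and the lower one was the close paralog MPP3 (-0.13, SE 0.044). MAGI2 (mean 3.21 CPM) shares 172 exon bases with MAGI2-AS3 on the opposite strand, which was far more abundant (46.6 CPM). DLG5 (91.5 CPM) shares 1753 with an opposite-strand gene at 0.39 CPM. None of the 20 was called between the duplexes, and 2 hold a strong seed match.

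Of 21 tested genes of fatty acid activation and phospholipid peroxidation other than ACSL4, 7 were lower and 2 higher with the microRNA duplexes (median -0.07). SLC27A4, a fatty acid transport protein, changed by -0.77 (SE 0.046). LPCAT3, which places polyunsaturated fatty acids in phospholipids beside ACSL4, changed by -0.63 (SE 0.057), but 65.6% of its exon bases lie opposite EMG1. SLC7A11, the cystine transporter that protects from ferroptosis, changed by 0.77 (SE 0.085). The second higher gene was the elongase ELOVL5 (0.10, SE 0.041). The paralog ACSL6 was lower (-0.37, SE 0.082), while ACSL1 (0.06, SE 0.040) and ACSL3 (-0.04, SE 0.044) did not pass. None of the 21 was called between the duplexes.

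Of 38 tested TBC domain genes and partners other than TBC1D13, 13 were lower and 11 higher (median 0.02). TBC1D5, a retromer-associated GAP, was at -0.58 (SE 0.047), although it shares exon bases with SATB1. EVI5L was at -0.51 (SE 0.060), and RAB35, the GTPase that TBC1D13 acts on, was at 0.20 (SE 0.045). TBC1D25, an autophagy-linked GAP, holds a 13 to 16 pairing site of its own and was at -0.48 (SE 0.046), with 16.4 CPM under miR-34a-WT and 16.9 under miR-34a-RS, a difference of 0.05 (SE 0.057) that did not pass. RABGAP1 was the 1 gene of this list called higher with the abasic duplex (0.19, SE 0.044).

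Of 32 phosphoinositide phosphatases and kinases other than PIP4P2, 13 were lower and 9 higher (median -0.08). PIP5K1A, a kinase that makes phosphatidylinositol 4,5-bisphosphate and has an 8mer, was at -0.69 (SE 0.034). OCRL, a 5-phosphatase acting on the same lipid, was at 0.63 (SE 0.038). PIP4P1, the paralog of PIP4P2, was at 0.01 (SE 0.054) and has no seed match. INPP5K, with a 13 to 16 pairing site, differed by 0.09 (SE 0.060) between the duplexes and did not pass, and INPPL1 was the 1 gene of the list called higher with miR-34a-RS (0.23, SE 0.051).

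Of 18 tested CCHC zinc finger genes other than ZCCHC17, 6 were higher and 3 lower (median 0.05). ZCCHC12 was at 0.30 (SE 0.043), and the lower genes were ZCCHC14 (-0.20, SE 0.036), ZCCHC18 (-0.39, SE 0.088) and ZCCHC2 (-0.13, SE 0.044). None was called between the duplexes, including ZCCHC24 with its 13 to 16 pairing site (0.06, SE 0.062). Of 31 tested LIM domain and integrin-linked genes other than LIMD2, 11 were lower and 5 higher (median -0.08). LIMA1 (-0.63, SE 0.043) and LASP1 (-0.47, SE 0.045), which bind actin, and PDLIM1 (-0.35, SE 0.041) were lower, and AJUBA, WTIP, TRIP6, PARVB and PDLIM4 were the higher ones, by 0.14 to 0.33. In this list 3 genes were called higher with the abasic duplex, and none of the 3 has a 13 to 16 pairing site: LIMA1 (0.32, SE 0.053), PXN (0.27, SE 0.071) and PDLIM1 (0.23, SE 0.050).

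Genes with other sites, or none, had profiles much like the members'. Likeness was the Pearson correlation of log2 CPM over the 14 libraries among 11109 named genes with a mean of at least 5 CPM, and the libraries fall in 3 groups, so it mostly follows the group means. For MPP2 the 5 most alike were SH3GL1 (0.993), EPHB2 (0.988), MYO19 (0.984), LRRC8A (0.983) and ACSL4 (0.983). SH3GL1, an endophilin of endocytosis, went from 137 CPM in control to 49.5 under miR-34a-WT and 78.4 under miR-34a-RS, with a 7mer-m8 that has no 13 to 16 pairing. EPHB2, an ephrin receptor, has 2 strong matches without it, and MYO19, a mitochondrial myosin, and LRRC8A, a volume-regulated channel subunit, have no strong or weaker seed match in the 3′ UTR searched. MYO19 shares exon bases with ZNHIT3 and PIGW on the opposite strand.

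For 4 of the other members, the gene most alike was RRP1B for ACSL4 (0.990), TMEM150A for TBC1D13 (0.994, 79 exon bases opposite USP39), ECHS1 for ZCCHC17 (0.979) and FERMT2 for PIP4P2 (0.883). None of these 4 holds a 13 to 16 pairing site, a count that leaves out the gene most like LIMD2, which is not reported here. FERMT2, an integrin activator, had the PIP4P2 order of groups, with 78.7 CPM in control, 64.5 under miR-34a-WT and 87.4 under miR-34a-RS. Among the members themselves the correlation ran from 0.512 (TBC1D13 with PIP4P2) to 0.983 (MPP2 with ACSL4).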

How the data were processed

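Raw read counts per gene for 14 libraries were deposited by the authors as 1 table of whole numbers, and every column matched the labels of 1 sample. Library preparation used TruSeq RNA v2, per the labels' protocols. STAR 2.7.11a, Subread 2.0.3 (featureCounts), edgeR 3.42.4 and the build GRCh38 are named in the submitters' processing notes; the annotation release and strand setting are not given in the sources used here. Gene identifiers were matched to GENCODE 29, which covered 99.7% of counts.

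The tests used edgeR 4.0.16 (R 4.3.3, TMM, filterByExpr by group, robust quasi-likelihood fit of 3 group means over 14 libraries). Benjamini-Hochberg adjustment ran over all 18321 tested genes at 0.05, and SEs came from the F statistic. The common biological coefficient of variation was 0.062. No replicates agreed within sampling noise (chi-square per degree of freedom 2.72 to 14.3 over 26 pairs). The script was tested on simulated counts. Same-numbered miR-34a-RS and miR-34a-WT libraries deviated together (correlation 0.373 to 0.716 over 11259 genes), so their numbers pair them. Control libraries met the criterion (over 0.1 in every pair) neither with miR-34a-WT (-0.156 to 0.557, mean 0.291) nor with miR-34a-RS (-0.002 to 0.478, mean 0.274); differently numbered libraries averaged -0.071 and -0.07.

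The members and gene lists were chosen with earlier results of these data known. Named genes are the members, the 4 next in the order of sites, up to 3 per family list by smallest adjusted p over the microRNA libraries, and the most alike genes (5 for MPP2, 1 for each other member); other paralogs, partners, genes with a 13 to 16 pairing site and genes of small counts were named after their values were seen. Some genes that these rules name, 1 of the first 7 in the order of sites and the gene most like LIMD2 among them, are not reported here. Alternatives were DESeq2 1.42.0, upper-quartile factors, no filter, a replicate block, fits of only the groups compared, leaving out each library, and other definitions of a site.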

Additional observations from a re-analysis of the deposited data

How the results depend on the processing

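Over all alternatives, the members' side of the threshold and direction held in 107 of 108 values for the 9 microRNA libraries against control, 114 of 114 for miR-34a-WT against control and 112 of 114 for miR-34a-RS against control. The difference between the duplexes, which has no test here, stayed positive in 114 of 114, as the members were chosen for it. The exceptions were all PIP4P2. Its change over the microRNA libraries ranged from -0.21 (without miR-34a-RS replicate 1, the 1 exception) to -0.074 as single libraries were left out; its change with miR-34a-RS ranged from 0.17 to 0.29 and passed without miR-34a-RS replicate 5, and at 0.23 with the replicate block. The block changed no other call of a member. The 286 genes called between the duplexes became 509 with DESeq2 (279 higher, 230 lower), 1254 with the replicate block (625 higher, 629 lower) and 309 with upper-quartile factors (234 higher, 75 lower). Leaving out single libraries gave 142 to 730: 730 without miR-34a-RS replicate 1, 143, 142 and 176 without miR-34a-RS replicates 2, 3 and 5, and 175 and 151 without miR-34a-WT replicates 1 and 3. The cause was not tested. Genes with a 13 to 16 pairing site numbered 136 instead of 223 with 1 to 9 bases between, 551 with any seed match and 241 over any coding transcript, as these definitions are narrower or wider. Depth limits PIP4P2 most, with at most 250 counts per library.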
